A study of Mus musculus with 6 samples.

Results

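Aminoacyl-tRNA synthetases were examined in the aorta of miRNA-26b-/- and miRNA-26b+/+ mice. The members are the genes of the count table whose symbol has the form of 1 amino acid letter followed by ars, with or without the suffix 2, together with *Farsa* and *Farsb* and without *Lars2*. This rule uses names only and found 35 of 55341 genes, of which 19 encode cytosolic enzymes and 16, with the suffix 2, encode mitochondrial enzymes. It does not take in *Eprs*, the fused glutamyl-prolyl enzyme, nor *Tarsl2*, and both are given below as related genes.

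RNA was sequenced from the aortic arch and thoracic aorta of 3 miRNA-26b-/- and 3 miRNA-26b+/+ mice, with 1 library for each mouse. The animals were 8 weeks old and on chow diet, and the labels give the strain C57BL/6NCrl for both groups. Per the methods of the study, the knockout allele was made in 129/Sv embryonic stem cells and a loxP-flanked *Mir26b* was removed with a tamoxifen-inducible CreERT2 that was bred out afterwards, while the host gene *Ctdsp1* was kept. Both groups are described as being on a C57BL/6 background, no floxed or Cre-carrying control is among the samples, and 129/Sv sequence kept around *Mir26b* on chromosome 1 and loss of miRNA-26b cannot be told apart for genes nearby. The paper also describes the strains first set up from the chimeras as mixed 129/Sv-C57BL/6. Whether 129/Sv sequence remained elsewhere in the genome was not tested.

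Each synthetase joins 1 amino acid to its tRNAs, and the charged tRNAs are what the ribosome reads. The cytosol and the mitochondrion have separate sets, and the mitochondrial enzymes, encoded in the nucleus, serve the translation of the few proteins of the mitochondrial genome. In the textbook amino acid response, uncharged tRNA activates the kinase Gcn2, the transcription factor Atf4 is translated, and Atf4 raises transporters, biosynthetic enzymes and several cytosolic synthetases through a composite C/EBP-ATF element.

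The composite element was searched in the promoters of the members, since it is the sequence known to tie cytosolic synthetases to amino acid supply. RefSeq windows of 250 bases before to 50 bases after the transcription start (GRCm38.p6) were matched for 25 of the 35 members, 12 cytosolic and 13 mitochondrial. The letters TGATGNAA, on either strand, stood in 5 of the 12 cytosolic promoters (41.7%), in 0 of the 13 mitochondrial promoters, and in 4.51% of the promoters of 27025 genes with such a window. The cAMP response element TGACGTCA stood in 0 of the 12 and 0 of the 13, against 2.03% of all genes. 1 match for each of the 5 promoters follows with 11 bases on each side, 5′ to 3′ on the strand of the gene, with the element in capitals.
*Gars*, chr6:55037960-55037989, plus strand: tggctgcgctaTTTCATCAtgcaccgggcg
*Aars*, chr8:111033840-111033869, plus strand: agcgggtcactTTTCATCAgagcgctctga
*Iars*, chr13:49682126-49682155, plus strand: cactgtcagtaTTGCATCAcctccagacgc
*Tars*, chr15:11399655-11399684, minus strand: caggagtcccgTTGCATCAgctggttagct
*Yars*, chr4:129189895-129189924, plus strand: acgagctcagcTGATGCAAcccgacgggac

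The match of *Yars* reads TGATGCAA, and the other 4 shown have the element in the opposite orientation. A match describes letters in a window and is not evidence of a bound factor.

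The libraries held 25706728 to 33345037 counts, and 16017 genes passed a filter of a CPM (count scaled to library size) above 1 in at least 2 libraries, all 35 members among them. The row of *Mir26b* had 0 counts in the 3 miRNA-26b-/- libraries but also in miRNA-26b+/+ libraries 1 and 3, with 20 in library 2, so it gives little check of the labels. *Ctdsp1* had 5127 to 6121 counts in miRNA-26b-/- and 4549 to 5426 in miRNA-26b+/+. The labels name aortic endothelial cells, but 5 smooth muscle markers summed to 29280 to 39492 CPM against 378 to 1563 CPM for 5 endothelial markers, whose sums were lowest in miRNA-26b-/- libraries 1 (378 CPM) and 2 (409 CPM). In such tissue, fewer cells of a type and less RNA per cell cannot be told apart. Across all genes 6.46% had an unadjusted p under 0.05 between the genotypes (edgeR quasi-likelihood test), 3.07% with lower levels in miRNA-26b-/-, and 0.00624%, which is 1 gene, had a Benjamini-Hochberg adjusted p under 0.05.

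Every synthetase was detected in every library, from 17 counts (*Sars2* in miRNA-26b+/+ library 2) to 3666 counts. Levels are compared between genes as CPM per kilobase of annotated exon, which understates genes with many annotated isoforms. The cytosolic members ranged from 3.71 to 22.6 with a median of 11.9, and the mitochondrial members from 0.826 to 10.6 with a median of 2.48.

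**Figure D1:**
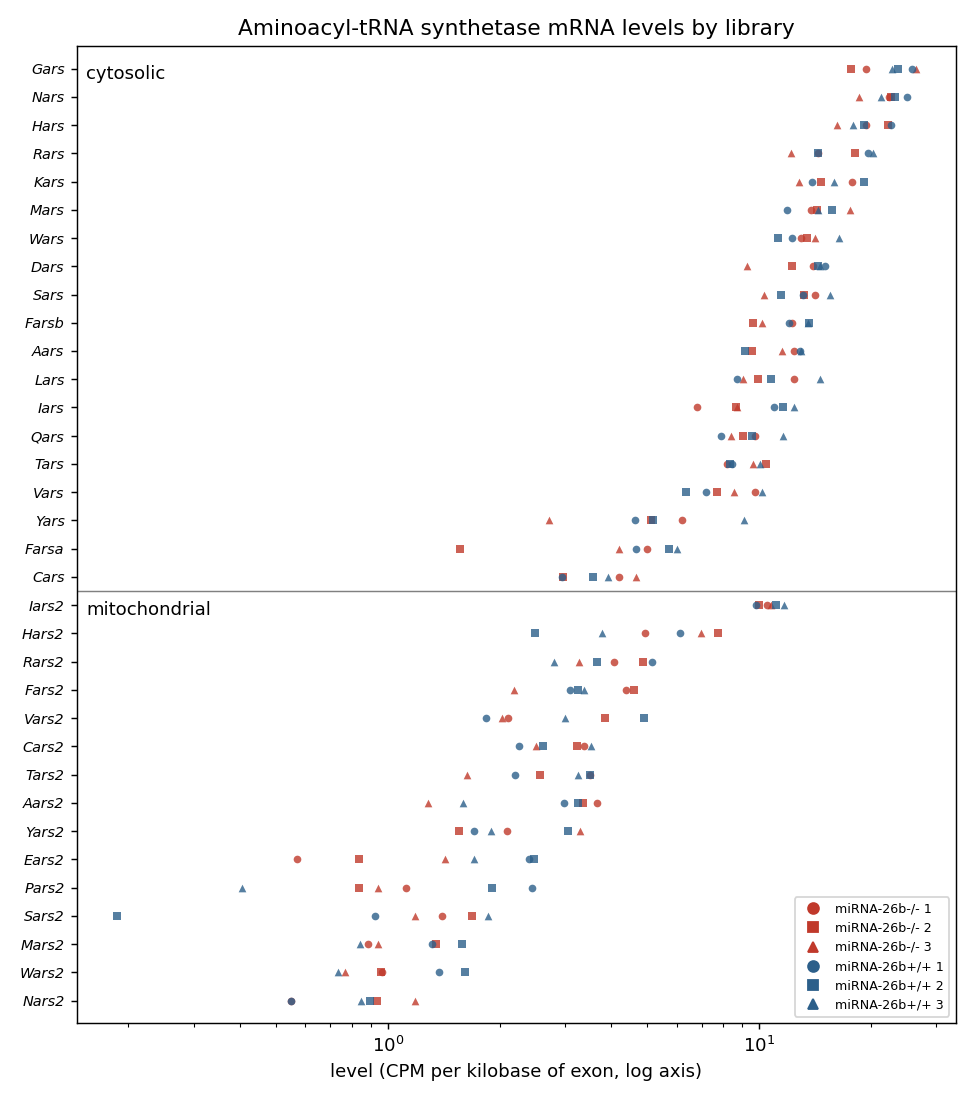
Level of 34 synthetases in each library, as CPM per kilobase of exon on a log axis, with miRNA-26b-/- in red, miRNA-26b+/+ in blue and the marker shape for the replicate. Cytosolic members lie above the line and mitochondrial members below it, and the 3 lowest cytosolic members lie below *Iars2* in every library.

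The highest cytosolic levels were those of *Gars*, the glycyl enzyme, at 22.6 ± 3.44 (SD, n = 6), *Nars*, the asparaginyl enzyme, at 22.2 ± 2.17, and *Hars*, the histidyl enzyme, at 19.6 ± 2.47, and their values overlap across the libraries. *Gars* and *Kars*, the lysyl enzyme at 15.7 ± 2.40, each supply both compartments from 1 gene. The lowest were *Yars*, the tyrosyl enzyme, at 5.49 ± 2.10, *Farsa*, the catalytic subunit of the phenylalanyl enzyme, at 4.52 (1.56 to 6.01 over the 6 libraries), and *Cars*, the cysteinyl enzyme, at 3.71 ± 0.683, and these 3 overlap as well. *Farsb* encodes the other subunit of the phenylalanyl enzyme and stood at 11.9 ± 1.64, above *Farsa* in every library. *Qars*, the glutaminyl enzyme without a mitochondrial partner, stood at 9.36 ± 1.29.

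Among the mitochondrial members *Iars2*, the isoleucyl enzyme, stood apart at 10.6 ± 0.700. It shares 22.9% of its exon bases with *Rab3gap2* (63.4 CPM), and the counting assigned reads over 2 genes to both without regard to strand, so reads of the shared bases cannot be told apart. *Hars2* followed at 5.34 ± 1.99 and *Rars2*, the arginyl enzyme, at 3.97 ± 0.910. The lowest were *Mars2* at 1.15 ± 0.305, *Wars2* at 1.07 ± 0.351 and *Nars2* at 0.826 ± 0.245, the methionyl, tryptophanyl and asparaginyl enzymes, which do not differ beyond their spread.

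For 14 amino acids a cytosolic and a mitochondrial enzyme could be set side by side, *Farsa* standing for the cytosolic phenylalanyl enzyme. The cytosolic mRNA was the higher in all 6 libraries for 10 pairs, and for no pair was the mitochondrial mRNA higher in all 6. The median ratio was largest for *Nars* over *Nars2* (25.6) and smallest for *Iars* over *Iars2* (0.957). The other pairs without 1 order in all libraries were *Cars*, *Farsa* and *Yars*, each with the mitochondrial mRNA higher in 1 library.

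**Figure D2:**
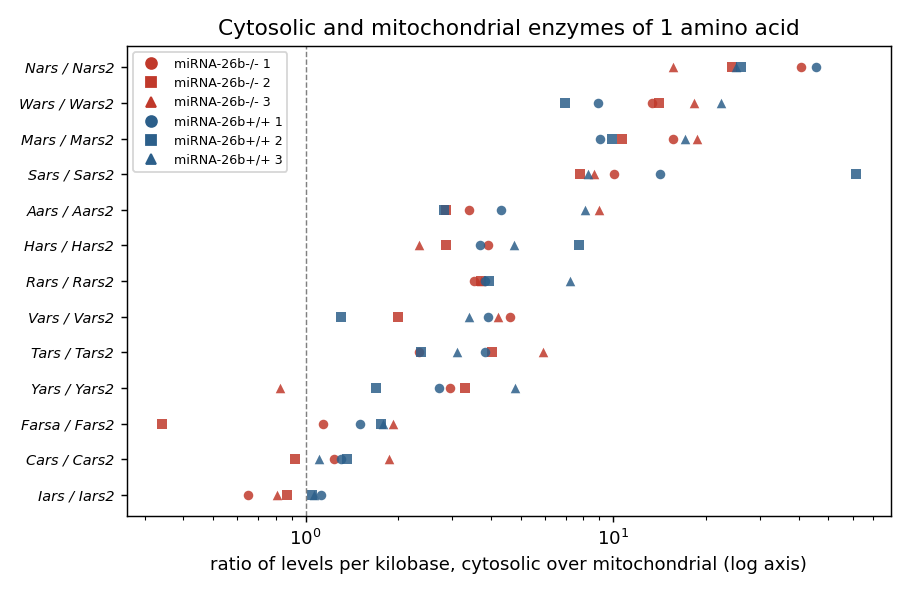
Ratio of the cytosolic to the mitochondrial level per kilobase for 13 of the 14 pairs, 1 marker for each library, with miRNA-26b-/- in red and miRNA-26b+/+ in blue, on a log axis with a dashed line at a ratio of 1. Most pairs lie right of the line in all 6 libraries, and the *Iars* to *Iars2* ratio is under 1 in the 3 miRNA-26b-/- libraries and over 1 in the 3 miRNA-26b+/+ libraries.

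The ratio of *Iars* to *Iars2* was 0.649, 0.868 and 0.809 in miRNA-26b-/- and 1.12, 1.05 and 1.06 in miRNA-26b+/+, so the groups did not overlap. *Iars2* itself had a log2 fold change of -0.06, so this separation largely restates the difference in *Iars* given below. Where the ratio stands against 1 also depends on reads of the bases that *Iars2* shares with *Rab3gap2*. The ratio of *Rars* to *Rars2* was 3.54, 3.72 and 3.72 in miRNA-26b-/- and 3.82, 3.94 and 7.23 in miRNA-26b+/+, also without overlap, the gap between the groups being small beside the value of miRNA-26b+/+ library 3. In the other 12 pairs the groups overlapped. Among all genes tested, 11.5% had groups without overlap in either direction, a share for levels of single genes and not for ratios.

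The comparison of the genotypes asks how loss of miRNA-26b alters the aortic transcriptome. Of the 19 cytosolic members 1, *Iars*, had an unadjusted p under 0.05, and of the 16 mitochondrial members 1, *Ears2*, both lower in miRNA-26b-/-. These 2 of 35 are close to the 6.46% of all genes, and 0 members passed after adjustment (smallest adjusted p = 0.736, edgeR with Benjamini-Hochberg). DESeq2, limma voom and edgeR's likelihood ratio test also gave 0 members after adjustment.

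*Iars*, the cytosolic isoleucyl enzyme, had 35.8, 45.7 and 45.9 CPM in miRNA-26b-/- and 57.9, 61.2 and 65.3 CPM in miRNA-26b+/+. All 3 miRNA-26b-/- libraries lay below all miRNA-26b+/+ libraries, with library 1 the lowest. Mean levels were 42.5 ± 5.77 and 61.5 ± 3.73 CPM (SD, n = 3 each). The difference on the log2 scale was -0.53 with a standard error of 0.193 and a 95% interval of -0.94 to -0.12 (adjusted p = 0.736, edgeR). Without miRNA-26b-/- library 1 it was -0.43 and no longer had an unadjusted p under 0.05. The exons of *Iars* share no base with another gene.

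*Ears2*, the mitochondrial glutamyl enzyme, had 2.93, 4.32 and 7.33 CPM in miRNA-26b-/- and 12.4, 12.7 and 8.79 CPM in miRNA-26b+/+. The groups did not overlap, though miRNA-26b-/- library 3 and miRNA-26b+/+ library 3 lay near each other. The log2 fold change was -1.21 with a standard error of 0.458 and a 95% interval of -2.19 to -0.23 (adjusted p = 0.736, edgeR). The unadjusted p was no longer under 0.05 without miRNA-26b-/- library 1 (log2 fold change -0.98), miRNA-26b-/- library 2 (-1.11), miRNA-26b+/+ library 1 (-1.13) or miRNA-26b+/+ library 2 (-1.11). *Ears2* shares 89 exon bases, 1.73%, with *Ubfd1* (56.7 CPM).

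**Figure D3:**
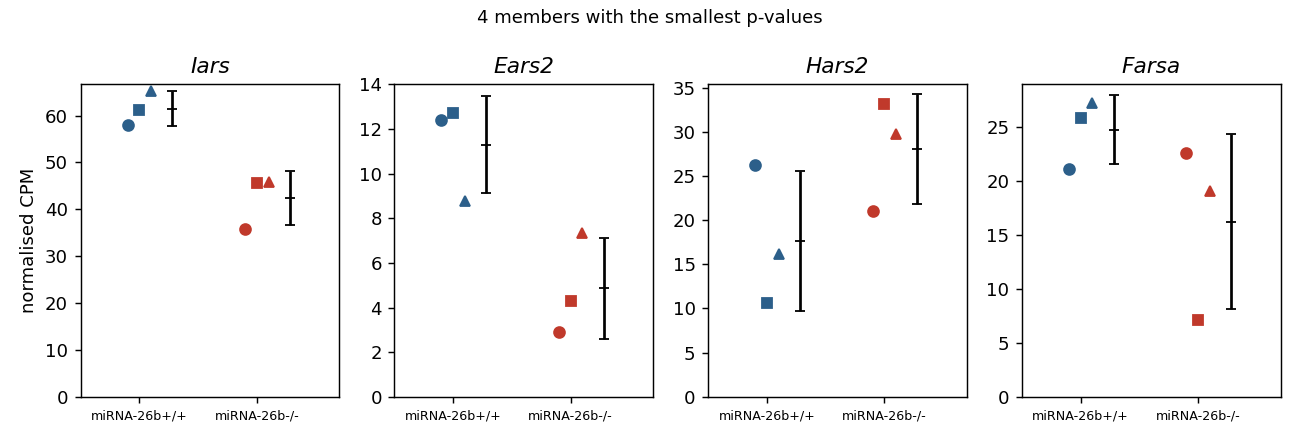
Normalised CPM of *Iars*, *Ears2*, *Hars2* and *Farsa*, the members with the smallest p-values, in each library, with circles, squares and triangles for replicates 1, 2 and 3 and the bar for the mean ± SD of 3 mice. The groups are separate for *Iars* and *Ears2* and overlap for *Hars2* and *Farsa*.

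*Dars*, the cytosolic aspartyl enzyme, was the third member whose groups did not overlap, with 60.6, 53.5 and 40.3 CPM in miRNA-26b-/- and 65.4, 62.7 and 63.4 CPM in miRNA-26b+/+. Its log2 fold change was -0.31 (95% interval -0.73 to 0.11, adjusted p = 0.837 by edgeR), and *Dars* lies on chromosome 1, 54.0 Mb from *Mir26b*. Without miRNA-26b-/- library 3, the lowest, it was -0.17. Thus 3 of 35 members had groups without overlap, all with miRNA-26b-/- below, against 11.5% of all genes in either direction and 5.88% with miRNA-26b-/- below.

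*Hars2*, the mitochondrial histidyl enzyme, had 21.1, 33.1 and 29.8 CPM in miRNA-26b-/- and 26.2, 10.6 and 16.2 CPM in miRNA-26b+/+. It was the member with the most positive log2 fold change, 0.67 with a 95% interval of -0.02 to 1.35 (adjusted p = 0.769, edgeR), and the groups overlapped through miRNA-26b+/+ library 1. Without that library the log2 fold change was 1.07, and without miRNA-26b-/- library 1 it was 0.82, both with an unadjusted p under 0.05. Without miRNA-26b+/+ library 2 it was 0.42. *Hars* and *Hars2* are neighbours in opposite directions that share 195 exon bases, whose reads counted for both.

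*Farsa* had 22.6, 7.09 and 19.1 CPM in miRNA-26b-/- and 21.2, 25.9 and 27.3 CPM in miRNA-26b+/+. Library 2 of miRNA-26b-/- was far below the rest, and the log2 fold change of -0.65 (95% interval -1.41 to 0.10, adjusted p = 0.790 by edgeR) became -0.25 without it. Without miRNA-26b-/- library 1 it was -0.97 with an unadjusted p under 0.05. *Farsb*, its partner, had 32.0, 25.3 and 26.7 CPM in miRNA-26b-/- and 31.6, 35.6 and 35.4 CPM in miRNA-26b+/+, a log2 fold change of -0.29 (95% interval -0.78 to 0.19, adjusted p = 0.877 by edgeR). It is the member nearest to *Mir26b*, at 4.06 Mb, and shares 9.47% of its exon bases with *Sgpp2* (0.605 CPM).

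*Yars* had 36.7, 30.4 and 16.1 CPM in miRNA-26b-/- and 27.6, 30.8 and 54.0 CPM in miRNA-26b+/+. Its log2 fold change of -0.44 (95% interval -1.12 to 0.24, adjusted p = 0.860 by edgeR) was -0.08 without miRNA-26b+/+ library 3, the highest, -0.17 without miRNA-26b-/- library 3, the lowest, and -0.67 without miRNA-26b-/- library 1. *Rars* had 46.5, 58.5 and 39.3 CPM in miRNA-26b-/- and 63.3, 46.4 and 65.4 CPM in miRNA-26b+/+, a log2 fold change of -0.28 (95% interval -0.73 to 0.18, adjusted p = 0.882 by edgeR), which became -0.15 without miRNA-26b-/- library 3 and -0.45 without miRNA-26b-/- library 2. The intervals of the other members all held 0. That of *Gars* ran from -0.60 to 0.22, that of *Kars* from -0.53 to 0.30 and that of *Qars* from -0.51 to 0.32. The log2 fold change of *Gars*, -0.19, became -0.07 without miRNA-26b-/- library 2 and -0.38 without miRNA-26b-/- library 3.

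**Figure D4:**
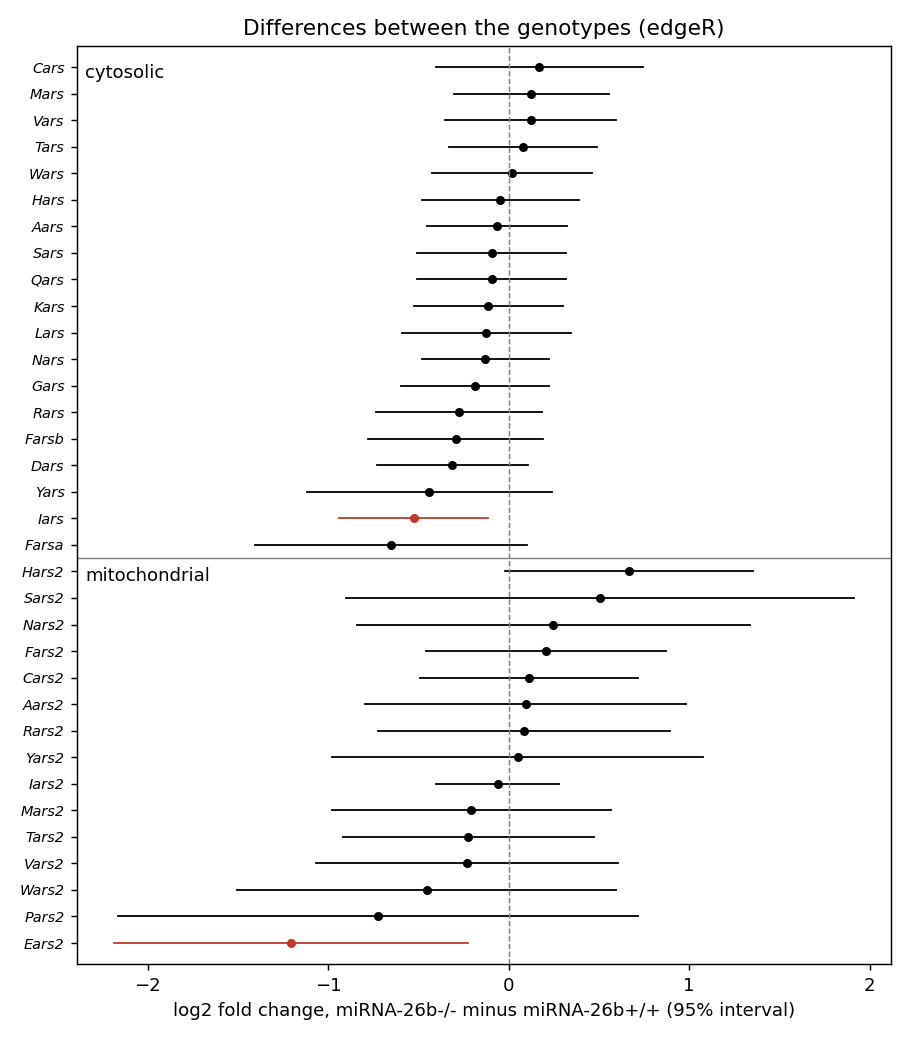
Log2 fold change of 34 synthetases, miRNA-26b-/- minus miRNA-26b+/+, with the 95% interval of the edgeR fit, cytosolic members above the line and mitochondrial members below it. The intervals of *Iars* and *Ears2*, in red, leave out 0. Most mitochondrial members have wider intervals than most cytosolic members, though that of *Iars2* is the narrowest shown.

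The fitted fold change was below 0 for 14 of 19 cytosolic members and for 7 of 16 mitochondrial members, against 48.6% of all genes. The median log2 fold change was -0.11 for the cytosolic and 0.07 for the mitochondrial members, and 0.01 for all genes tested. Without miRNA-26b+/+ library 3, 10 of 19 cytosolic members were below 0 and the median was -0.08. The cytosolic median was -0.04 without miRNA-26b-/- library 3 and -0.17 without miRNA-26b-/- library 1, with 13 and 14 of 19 below 0. The mitochondrial median was -0.14 without miRNA-26b+/+ library 3 and between -0.09 and 0.07 without each of the other 5.

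By library, miRNA-26b+/+ library 3 held the highest value of 10 of the 19 cytosolic members and miRNA-26b-/- library 3 the lowest of 7. The 19 members summed to 1060, 983 and 955 CPM in miRNA-26b-/- and 1051, 1035 and 1191 CPM in miRNA-26b+/+, so the sums overlapped. The 16 mitochondrial members summed to 273, 298 and 251 CPM in miRNA-26b-/- and 270, 297 and 265 CPM in miRNA-26b+/+. No library was the highest for more than 5 of the mitochondrial members.

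**Figure D5:**
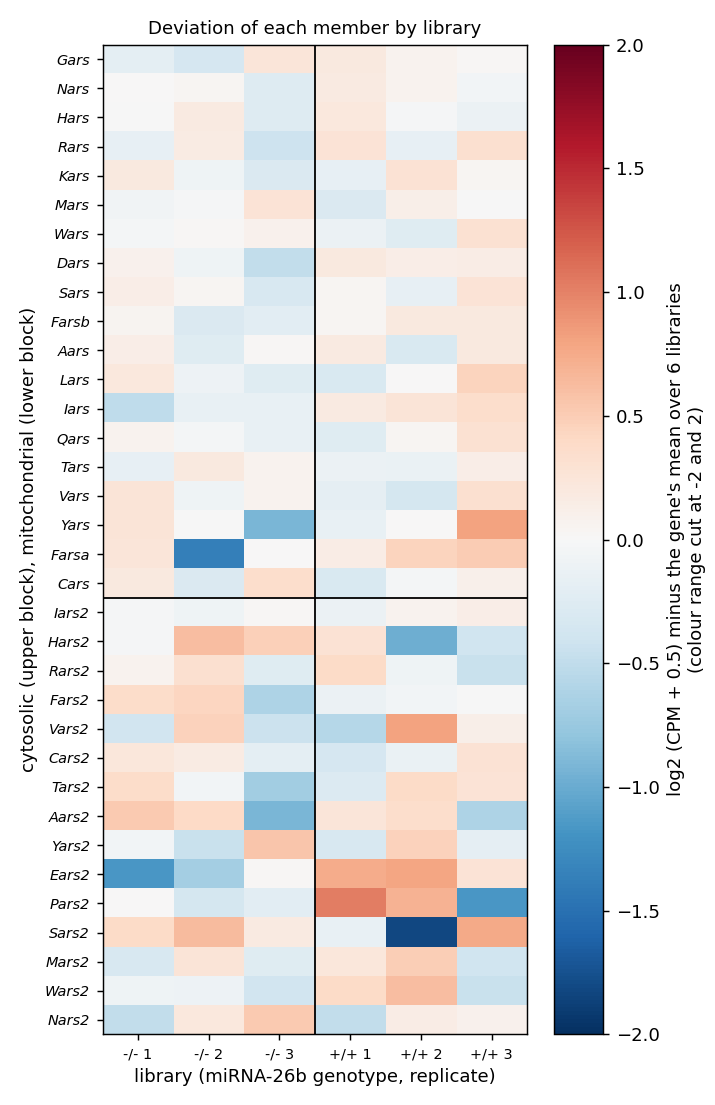
Deviation of 34 synthetases in each library from its own mean over the 6 libraries, on the scale of log2 (CPM + 0.5), with red above and blue below the mean and the genotypes separated by a vertical line. The cytosolic block is mostly red in miRNA-26b+/+ library 3, and single dark cells mark *Farsa* in miRNA-26b-/- library 2 and *Sars2* in miRNA-26b+/+ library 2.

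The mitochondrial members varied more between mice. The median coefficient of variation within miRNA-26b+/+ was 31.8% for mitochondrial and 14.1% for cytosolic members, and within miRNA-26b-/- it was 25.4% and 15.5%. All genes within the same range of mean CPM had medians of 20.6% and 24.2% for the mitochondrial range and 15.3% and 18.1% for the cytosolic range, in miRNA-26b+/+ and miRNA-26b-/- in that order. The mitochondrial range ran from 3.95 to 94.5 CPM, with its upper end set by *Iars2* alone. The genes within it are therefore not matched in level to the other mitochondrial members. The ratio of the highest to the lowest library had a median of 2.18 for mitochondrial and 1.50 for cytosolic members and reached 9.99 for *Sars2*, the mitochondrial seryl enzyme, which had 119, 188 and 111 counts in miRNA-26b-/- and 94, 17 and 187 in miRNA-26b+/+. *Iars2* was the steadiest member at 1.19.

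The 5 cytosolic members with the composite element had log2 fold changes from -0.53 (*Iars*) to 0.08 (*Tars*) with a median of -0.19, and the 7 without it in their window from -0.65 (*Farsa*) to 0.13 (*Mars*) with a median of -0.11. The ranges overlapped, as did the levels per kilobase, with medians of 9.86 and 12.9.

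Members on chromosome 1 included *Farsb*, *Dars*, *Mars2* at 19.2 Mb from *Mir26b* and *Iars2* at 110.9 Mb, and none of these had p under 0.05. Besides the overlaps given above, *Aars* shares 15.1% of its exon bases with other genes, chiefly *Exosc6*, *Fars2* 10.7%, chiefly with *Nrn1*, and *Vars2* 8.52%. *Cars2* (5.83%), *Nars2* (4.08%), *Cars* (3.21%), *Mars* (1.99%, with *Ddit3*) and *Yars* (0.505%) share less.

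Of the related genes, *Eprs* had 84.7, 111.2 and 113.9 CPM in miRNA-26b-/- and 111.1, 118.2 and 108.9 CPM in miRNA-26b+/+, a log2 fold change of -0.12 (adjusted p = 0.944, edgeR). *Tarsl2*, a second threonyl enzyme, had a log2 fold change of -0.12 (adjusted p = 0.987, edgeR). The 3 scaffold proteins of the multisynthetase complex, *Aimp1*, *Aimp2* and *Eef1e1*, had log2 fold changes of 0.03, 0.11 and 0.62, and none passed p under 0.05. *Lars2*, left out of the members, had a log2 fold change of 0.96 (adjusted p = 0.102, edgeR with Benjamini-Hochberg).

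Of 32 genes of the amino acid response 30 were tested and 3 had an unadjusted p under 0.05, 1 higher and 2 lower in miRNA-26b-/-, with a median log2 fold change of 0.02 over the 30. Over all genes the share was 6.46%, and the count of 3 became 0 without miRNA-26b-/- library 1 and 1 without miRNA-26b+/+ library 1, with DESeq2 and with the likelihood ratio test. *Nupr1*, a stress-induced nuclear protein, had 244.8, 220.0 and 179.1 CPM in miRNA-26b-/- and 151.3, 130.3 and 189.4 CPM in miRNA-26b+/+ (log2 fold change 0.45, adjusted p = 0.736, edgeR). *Slc3a2*, the heavy chain of amino acid exchangers, had 61.8, 54.1 and 64.8 CPM against 78.4, 90.7 and 68.6 CPM (log2 fold change -0.40, adjusted p = 0.758, edgeR). *Cth*, the last enzyme of cysteine synthesis, had only 0, 25 and 0 counts against 28, 79 and 75 (adjusted p = 0.756, edgeR).

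*Atf4* itself had a log2 fold change of 0.03 (adjusted p = 0.992, edgeR). *Asns*, asparagine synthetase and a textbook Atf4 target, had 11.4, 13.2 and 6.80 CPM in miRNA-26b-/- and 4.11, 8.55 and 3.14 CPM in miRNA-26b+/+, with overlap (log2 fold change 1.03, adjusted p = 0.769, edgeR). None of 12 genes of tRNA charging outside the members (*Eprs* and *Tarsl2* among them), 7 elongation factors, and 8 genes of eIF2 phosphorylation had p under 0.05.

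Marker lists of other cell types were read beside these differences. All 5 Schwann cell markers had p under 0.05 with higher levels in miRNA-26b-/-, their sum being 329 to 516 CPM against 209 to 281 CPM, and all 5 were above 0 in every library. Of 5 skeletal muscle markers 4 were higher at p under 0.05, with sums of 8.39 to 83.2 CPM against 2.18 to 11.2 CPM and the highest sum in miRNA-26b-/- library 2. *Mylpf* and *Myh4* were at 0 in the 3 miRNA-26b+/+ libraries, and *Myh4* and *Ckm* were at 0 in miRNA-26b-/- library 3. Of 5 sympathetic neuron markers *Th* and *Tubb3* were higher at p under 0.05, with sums of 57.3 to 333 CPM against 93.7 to 144 CPM and the highest sum in miRNA-26b-/- library 2, and *Th* and *Dbh* were at 0 in miRNA-26b-/- libraries 1 and 3 and in miRNA-26b+/+ libraries 1 and 3. *Tek* of 5 endothelial markers and *Myocd* of 5 smooth muscle markers were lower at p under 0.05, with sums of 378 to 1563 CPM against 1087 to 1487 CPM and of 29280 to 36818 CPM against 32162 to 39492 CPM, and no marker of either list was at 0. No marker of the fibroblast, adipocyte, macrophage, cardiac muscle, lymphocyte and erythroid lists had p under 0.05. Sums of these lists still differed between libraries. The adipocyte sum was 757, 1640 and 449 CPM in miRNA-26b-/- and 863, 1174 and 428 CPM in miRNA-26b+/+. The cardiac muscle sum was 17.5, 293 and 18.3 CPM against 64.0, 265 and 26.6 CPM. Both were highest in library 2 of each genotype. The macrophage sum ran from 153 to 468 CPM and the erythroid sum from 85.6 to 929 CPM. The part of these cell types in the values of *Iars* and *Ears2*, or in the spread of the mitochondrial members between mice, was not tested.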

How the data were processed

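RNA-seq libraries of mouse aorta, 3 per genotype, were used. The authors aligned reads to GRCm38/mm10 with STAR and deposited raw read counts per gene name made with featureCounts 1.6.4 over exons. Strand was ignored, and a read over 2 or more genes was assigned to all of them. Groups follow the genotype labels, and replicate numbers follow deposition order. A deposited table of CPM values with the authors' own comparison (fold changes, p-values) was not used.

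The filter kept genes with CPM over 1 in 2 or more libraries and a summed count of 2 or more. TMM factors and quasi-likelihood F tests came from edgeR 4.0.16 (R 4.3.3). The fit was first run at the default of glmQLFit, which is the earlier method and gave 802 genes at unadjusted p under 0.05 and 0 after adjustment. The newer method (legacy=FALSE) was then taken as the reported fit, after those results had been seen, and gave 1035 and 1. The members at unadjusted p under 0.05 were *Iars* and *Ears2* in both. On simulated data for this comparison 15120 of 16017 genes passed the filter. Of the unchanged genes among those tested, the newer method called 6.26% at that threshold.

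The Benjamini-Hochberg method was applied across the tested genes. Alternatives used DESeq2 1.42.0, limma 3.58.1 voom, other normalisations and filters, and leaving out each library. The members and gene lists were chosen with earlier results of these data known. Named members are the 8 with the smallest p, the 3 highest and lowest per class, *Gars*, *Kars*, *Qars*, *Farsa*, *Farsb*, those overlapping another gene and those on chromosome 1. Of the lists, genes with p under 0.05, *Eprs*, *Tarsl2*, *Atf4*, *Asns* and the 3 scaffold genes are named, and *Lars2* once. Exon overlaps come from the exon coordinates deposited with the counts, gene positions from GENCODE M21 and promoters from RefSeq. Protein sequences were not analysed here. The values of 1 mitochondrial member and 1 promoter match are not reported here, though counts and summaries over the members include them.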

Additional observations from a re-analysis of the deposited data

How the results depend on the processing

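The counts of members at unadjusted p under 0.05 were 1 cytosolic and 1 mitochondrial under each other normalisation and filter, and under each other test except limma voom, which gave 2 and 2. With limma voom this was 10.5% of the cytosolic and 12.5% of the mitochondrial members, against 5.29% of all genes. Under the other normalisations, filters and tests the share of all genes was between 4.32% and 6.49%. Leaving out 1 library at a time gave 1 cytosolic member each time and 0 to 1 mitochondrial members, but not always the same genes: without miRNA-26b-/- library 1 they were *Farsa* and *Hars2*, and without miRNA-26b+/+ library 1 the mitochondrial one was *Hars2*. The mitochondrial count was 0 without miRNA-26b-/- library 2 and without miRNA-26b+/+ library 2. Over all genes the count ran from 686 (without miRNA-26b+/+ library 3) to 1692 (without miRNA-26b-/- library 3). The 3 amino acid response genes became 1 with DESeq2 and 1 with the likelihood ratio test, and ran from 0 (without miRNA-26b-/- library 1) to 4 over the left-out libraries. The cytosolic median log2 fold change stayed between -0.17 and -0.04, while the mitochondrial one ran from -0.14 to 0.08 and changed sign. Over the left-out libraries the log2 fold change of *Kars* ran from -0.25 to 0.020, above 0 without miRNA-26b+/+ library 2, and that of *Qars* from -0.23 to 0.047, above 0 without miRNA-26b+/+ library 3. The cause was not tested. Adding *Eprs* and *Tarsl2* left the cytosolic count at 1. No paired analysis was possible because the labels give no replicate numbers that tie miRNA-26b-/- to miRNA-26b+/+ mice.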
